A study of Mus musculus with 6 samples.

Results

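The 9 homeostatic microglia genes P2ry12, P2ry13, Gpr34, Csf1r, Tmem119, Siglech, Selplg, Sall1 and Olfml3 were taken by symbol from the 55421 genes measured, and all 9 had counts in every library. They were read in the cortex of male wild-type (WT) C57BL/6J mice, 3 aged 6 months (numbered 10, 11 and 17) and 3 aged 24 months (numbered 2, 4 and 5). All mice had the same standard diet, were anaesthetised with isoflurane and killed by cervical dislocation, and each library came from the powdered cortex of 1 mouse, so that the mice are the replicates. The comparison asks how the genes differ between young and old adult cortex.

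Microglia are the resident macrophages of the brain. In the undisturbed tissue they carry a set of receptors and surface proteins, some of which, though not Csf1r, set them apart from other macrophages. P2ry12, P2ry13 and Gpr34 are receptors for nucleotides and lysophospholipids released by nearby cells, Csf1r is the growth factor receptor on which microglial survival depends, and Tmem119, Siglech and Selplg are surface proteins. Sall1 is a transcription factor of microglial identity, and Olfml3 is a secreted glycoprotein. Microglia in disease models and around plaques are known to lower this set while they raise Apoe, Trem2 and related genes.

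P2ry12 and P2ry13 are neighbours on the reverse strand of chromosome 3 (GRCm38, GENCODE vM21), at chr3:59216272-59262871 and chr3:59207892-59210882, with 5389 bases between them. Their promoters are shown because the pair shares its place in the genome as well as its kind of ligand. Each runs from 250 bases before to 50 bases after the start in RefSeq (GRCm38.p6), at chr3:59262936-59263235 for P2ry12 and chr3:59210833-59211132 for P2ry13. The capitals mark the letters searched for the myeloid factor PU.1, GAGGAAG or GGAAGT on either strand.
P2ry12: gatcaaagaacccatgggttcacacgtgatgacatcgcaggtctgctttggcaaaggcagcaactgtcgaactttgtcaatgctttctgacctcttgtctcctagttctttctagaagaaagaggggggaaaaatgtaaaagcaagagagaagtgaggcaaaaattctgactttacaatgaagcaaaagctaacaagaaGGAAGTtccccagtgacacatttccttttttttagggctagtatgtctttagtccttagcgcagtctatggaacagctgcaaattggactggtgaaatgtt
P2ry13: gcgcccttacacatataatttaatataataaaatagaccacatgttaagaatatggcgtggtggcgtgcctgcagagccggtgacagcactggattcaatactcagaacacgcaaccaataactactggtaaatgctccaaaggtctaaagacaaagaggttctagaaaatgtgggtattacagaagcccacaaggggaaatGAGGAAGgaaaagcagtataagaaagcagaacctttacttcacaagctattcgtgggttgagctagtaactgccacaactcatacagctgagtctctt
The matches begin at position -51 from the start for P2ry12 and at position -48 for P2ry13, and in both promoters the letters lie on the strand of the gene. Promoters were searched for 5 of the 9 genes, in 7 windows, since Sall1 has several starts. Those of Csf1r, Tmem119, Selplg and Gpr34 were not searched and are not reported here. The PU.1 letters were found in 4 of these windows, those of P2ry12, P2ry13, Siglech and 1 start of Sall1, and in 32.0% of the 32851 promoters of the same length. The E-box CACGTG, held by 7.15% of promoters, was found for P2ry12 and Siglech. The MEF2 motif (in 3.69% of promoters), the SMAD letters GTCTAG (in 8.37%) and the TATA box TATAAA (in 13.6%) were found in none of the 7 windows.

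The other genes lie at chr5:113793729-113800516 (Tmem119), chr5:113818536-113832644 (Selplg), chr18:61100598-61132149 (Csf1r), chr8:89027235-89044162 (Sall1), chr7:55768178-55778925 (Siglech), chrX:13632089-13640858 (Gpr34) and chr3:103722222-103738001 (Olfml3), and all 9 are annotated as protein-coding. Tmem119 and Selplg are thus close to each other on chromosome 5. P2ry12 and P2ry13 lie inside Med12l, and Gpr34 lies inside Cask, in each case on the opposite strand. For Csf1r, 873 exonic bases (15.1% of its exons) also belong to Hmgxb3 on the opposite strand, and the deposited counts do not tell the strands apart.

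The libraries held 29495379 to 36494240 counts. Counts were seen on 33974 to 35651 genes at 6 months and on 40208 to 43561 genes at 24 months. The counts on 2046 olfactory, vomeronasal and taste receptor genes were taken as a background. At 6 months they lay at 0.0198 to 0.0228 CPM (counts scaled to the library size) per exonic kb. They reached 0.0926 in mouse 2, 0.0756 in mouse 4 and 0.0542 in mouse 5. At that density the background would supply at most 0.482% of the counts of Tmem119 and 0.903% of those of Csf1r in any library, but up to 8.21% for Sall1 and 4.40% for Olfml3. Whether the receptor gene counts are background was not tested, and the paper assigns its up-regulated genes mainly to sensory perception. Counts were scaled by TMM, with which the median log2 fold change (24 over 6 months) was 0.15 over the 32905 genes tested and -0.14 over the 15793 genes of at least 1 CPM. With library totals alone these medians were 0.34 and 0.05, so that the fold changes given here move up by about 0.19 on the log2 scale. TPM, the level per exonic length used for comparing genes, sums to 1000000 in each library and was not scaled by TMM.

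Of the 9 genes, 0 passed the 1% FDR of edgeR's quasi-likelihood test, as for all 32905 genes (0%), of which 10097 had an unadjusted p under 0.05. Of the 9, 2 had such a p, and the count past 1% FDR was also 0 with edgeR's likelihood ratio test, which passed 5.18% of all genes, and with DESeq2, which passed 0.836%. At a wider 10% FDR, Tmem119 rose and Csf1r fell, 2 of 9 genes, where 18.4% of all genes and 19.7% of genes of at least 1 CPM passed, so the share was near the background. In each direction 1 of 9 passed, against 10.0% higher and 8.33% lower over all genes. The median log2 fold change of the 9 genes was -0.05, with 3 fitted higher and 6 lower under TMM, and 0.14 with 7 fitted higher under library totals. In bulk cortex, fewer microglia and less RNA per microglia cannot be told apart.

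**Figure D1:**
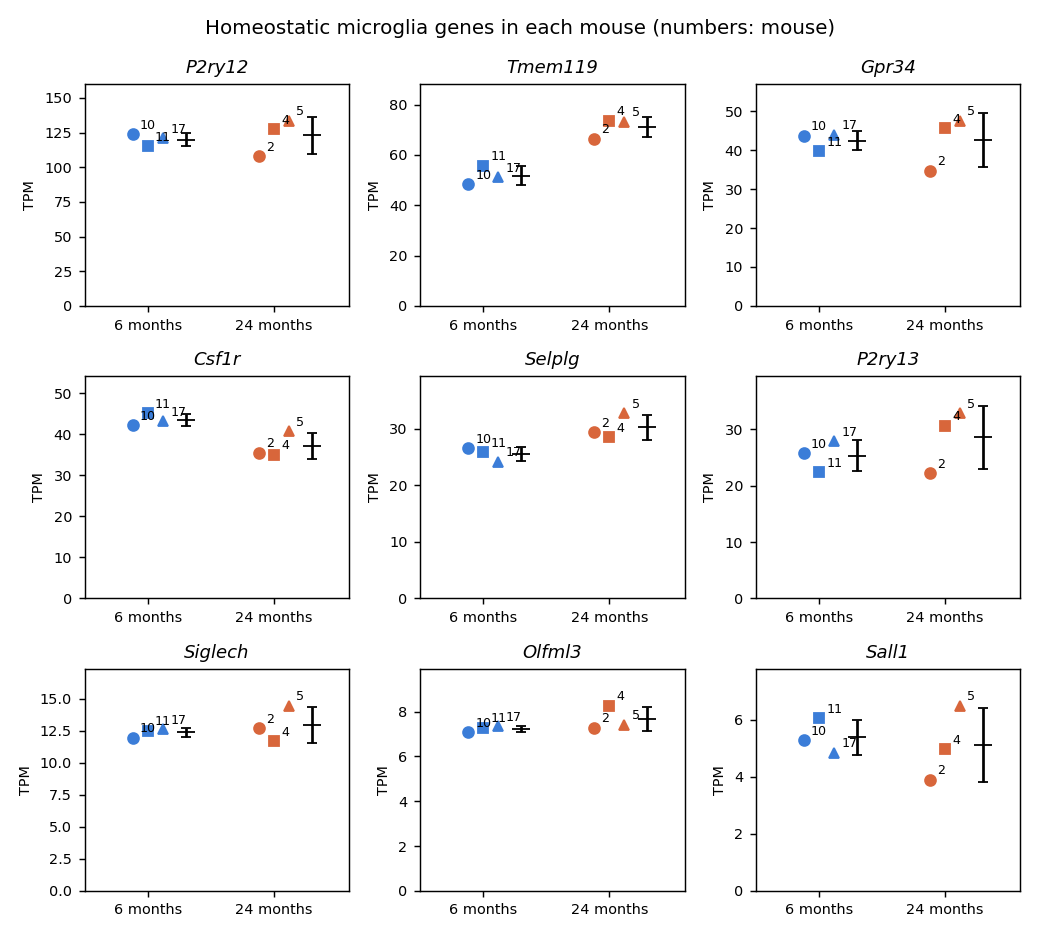
Level of each of the 9 genes in TPM (vertical axes, from 0) in the 6 mice, 6 months in blue and 24 months in orange, with the mouse numbers beside the points and the mean ± SD (n = 3) in black. Tmem119 is above 66 TPM in all 24-month mice and below 56 in all 6-month mice, Csf1r is at most 40.8 at 24 months and at least 42.2 at 6 months, and mouse 2 is the lowest 24-month mouse for P2ry12, Tmem119, Gpr34, P2ry13, Olfml3 and Sall1.

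P2ry12, the ADP receptor by which microglia extend processes to sites of injury, was the most abundant of the set, at rank 1518 of the 55421 genes by mean TPM. At 6 months its level was 124, 115 and 121 TPM (values stand in the order of mice 10, 11 and 17 throughout), and at 24 months it was 108, 128 and 134 TPM (in the order of mice 2, 4 and 5). The means were 119.9 ± 4.45 and 123.1 ± 13.4 TPM (SD, n = 3), and the 24-month mice lay on both sides of the 6-month mice. The log2 fold change was -0.08 (SE 0.10, edgeR quasi-likelihood adjusted p = 0.643), with a 95% interval of -0.31 to 0.16.

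P2ry13, a related ADP receptor, stood at 25.7, 22.4 and 27.9 TPM at 6 months and at 22.2, 30.7 and 32.9 TPM at 24 months. Mice 4 and 5 were above all 6-month mice, and mouse 2 was below them. Its log2 fold change was 0.06 (SE 0.16, edgeR adjusted p = 0.821; 95% interval -0.30 to 0.42). The TPM ratio of P2ry12 to P2ry13 lay at 4.34 to 5.13 at 6 months and at 4.06 to 4.87 at 24 months, so the ages overlapped.

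Gpr34, a receptor for lysophosphatidylserine, was measured at 43.7, 39.8 and 44.1 TPM at 6 months and at 34.7, 45.6 and 47.6 TPM at 24 months. Mouse 2 was again the lowest of the 6 and mouse 5 the highest. Its log2 fold change was -0.11 (SE 0.14, edgeR adjusted p = 0.607; 95% interval -0.41 to 0.19). In log2 CPM centred on each gene's mean, P2ry12 and Gpr34 were the most alike of the 36 pairs within the set, with a root mean square difference of 0.06 over the 6 libraries.

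The genes around these receptors did not pass the test at 10% FDR, P2ry4 apart. Abhd16a, which makes lysophosphatidylserine, and Abhd12, which breaks it down, had log2 fold changes of -0.08 and -0.20 (edgeR adjusted p = 0.577 and 0.134). Entpd1, which degrades ATP and ADP at the cell surface, had -0.00 (adjusted p = 0.998), and Nt5e, which makes adenosine from AMP, had -0.20 (adjusted p = 0.625). Of the paralogs, P2ry1 had 0.38 (adjusted p = 0.240), P2ry6, the microglial UDP receptor, -0.21 (adjusted p = 0.556) and P2ry14 -0.04 (adjusted p = 0.878). P2ry4 was called higher (adjusted p = 0.0894), from 0, 2 and 0 counts at 6 months to 5 counts in each 24-month mouse, where the receptor gene background for its exonic length would be 12.1, 10.8 and 7.88 counts, and it did not pass with DESeq2. Med12l, which holds P2ry12 and P2ry13, had -0.40 (adjusted p = 0.183) and Cask, which holds Gpr34, -0.02 (adjusted p = 0.934).

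Csf1r, the receptor for CSF1 and IL-34, was measured at 42.2, 45.2 and 43.1 TPM at 6 months, and at 35.5, 35.0 and 40.8 TPM at 24 months. All 24-month mice were below all 6-month mice, in TPM and in TMM-scaled CPM (69.8, 73.7 and 70.7 against 53.8, 53.1 and 61.9). The means were 43.5 ± 1.5 and 37.1 ± 3.21 TPM (SD, n = 3). The log2 fold change was -0.34 (SE 0.10, edgeR adjusted p = 0.0646; 95% interval -0.56 to -0.13), a fold of 0.788, and stood -0.20 from the median of genes of at least 1 CPM. Under library totals it was -0.15 and did not pass (adjusted p = 0.294), and without any 1 of mice 10, 11, 17, 2 and 4 the adjusted p was 0.112 to 0.261. Without mouse 5 it was 0.0351. Over all genes, 0, 1, 2476, 176 and 0 passed 10% FDR without mice 10, 11, 17, 2 and 4, and 7998 without mouse 5. With 1 mouse left out the log2 fold change of Csf1r was -0.41 to -0.28 (edgeR quasi-likelihood unadjusted p 0.00156 to 0.0630).

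Hmgxb3, which shares part of its exons with Csf1r and was added after its values were seen, had a log2 fold change of -0.39 (SE 0.12, edgeR adjusted p = 0.0775), from 1490, 1967 and 1540 counts to 1155, 1263 and 1503. The TPM ratio of Csf1r to Hmgxb3 was 2.72, 2.43 and 2.83 at 6 months and 2.85, 2.74 and 2.64 at 24 months. Both genes were thus lower together, with overlapping ratios, and the part of the shared bases in the fall of Csf1r was not tested.

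Il34, the CSF1R ligand that neurons make, fell as well at 10% FDR. It was at 102, 92.3 and 102 TPM at 6 months and at 89.4, 84.3 and 74.7 TPM at 24 months, a log2 fold change of -0.37 (SE 0.10, edgeR adjusted p = 0.0651). Under library totals the log2 fold change of Il34 was -0.17. Csf1, the other ligand, was at 18.2 ± 1.63 and 18.1 ± 0.96 TPM (SD, n = 3) and had a log2 fold change of -0.12 (adjusted p = 0.468). The TPM ratio of Il34 to Csf1 overlapped between the ages, at 4.61 to 6.07 and 4.02 to 5.25. Among receptors of the same family, Kit fell at 10% FDR (-0.33, adjusted p = 0.0635, and -0.13 under library totals). Flt3 had -0.13 (adjusted p = 0.776), Pdgfra -0.21 (adjusted p = 0.381) and Pdgfrb -0.15 (adjusted p = 0.638).

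Tmem119, a single-pass membrane protein used as a marker of resident microglia, was the second most abundant of the set. It was measured at 48.4, 55.8 and 51.2 TPM at 6 months and at 66.6, 73.7 and 73.3 TPM at 24 months, from 989, 1260 and 1102 counts and 1312, 1550 and 1517 counts. All 24-month mice were above all 6-month mice, also in TMM-scaled CPM, where the highest 6-month value was 36.5 and the lowest 24-month value 40.4. The means were 51.8 ± 3.72 and 71.2 ± 4.00 TPM (SD, n = 3). The log2 fold change was 0.34 (SE 0.10, edgeR adjusted p = 0.0684; 95% interval 0.12 to 0.57), a fold of 1.27, and stood 0.49 above the median of genes of at least 1 CPM. Under library totals it was 0.54 (adjusted p = 0.0494). The call was lost without any 1 of mice 10, 11, 17, 2 and 4, with adjusted p of 0.109 to 0.190, and stayed without mouse 5 (adjusted p = 0.0739). Over all genes, 0 to 2476 passed 10% FDR in the fits that lost the call, and 7998 without mouse 5. With 1 mouse left out the log2 fold change of Tmem119 was 0.30 to 0.44 (edgeR quasi-likelihood unadjusted p 0.00348 to 0.0328).

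Siglech belongs to the sialic acid-binding lectin family and signals through the adaptor Tyrobp. It was measured at 12.0, 12.5 and 12.6 TPM at 6 months and at 12.7, 11.7 and 14.5 TPM at 24 months. The ages overlapped, with a log2 fold change of -0.05 (SE 0.13, edgeR adjusted p = 0.813; 95% interval -0.33 to 0.23). Tyrobp had 0.07 (adjusted p = 0.727). Of the related lectins, Cd33 had 0.36 (adjusted p = 0.166) and Siglece -0.11 (adjusted p = 0.766).

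Selplg, the selectin ligand PSGL-1 that microglia carry, was measured at 26.6, 25.9 and 24.2 TPM at 6 months and at 29.4, 28.6 and 32.8 TPM at 24 months. In TPM the ages did not overlap, as for Tmem119 and Csf1r, so that 3 of 9 genes kept the ages apart on this scale, beside 34.4% of all genes tested. In TMM-scaled CPM they overlapped (29.3 to 32.5 against 32.1 to 36.8), and there 2 of 9 genes kept the ages apart, beside 36.3% of all genes. The log2 fold change of Selplg was 0.13 (SE 0.10, edgeR adjusted p = 0.409; 95% interval -0.10 to 0.36), and under library totals it was 0.32 and past 10% FDR (adjusted p = 0.0841). Of the selectins it binds, Selp was counted 0, 1 and 1 times in the younger and 13, 10 and 5 times in the older mice. It was called higher (edgeR adjusted p = 0.0526), while Sele had 5, 0 and 5 and then 12, 6 and 2 counts (adjusted p = 0.480). At its exonic length the receptor gene background amounts to 2.92, 3.56 and 3.51 counts for Selp at 6 months and 12.0, 10.8 and 7.85 at 24 months, which is close to what was counted at 24 months. Coro1c, a neighbour of Selplg on the same strand, passed at 10% FDR (-0.29, adjusted p = 0.0844) but not with the likelihood ratio test or DESeq2.

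Sall1, a zinc finger transcription factor that holds the microglial programme in place, was the least abundant, at 5.30, 6.06 and 4.84 TPM at 6 months and at 3.90, 4.97 and 6.50 TPM at 24 months. The 24-month mice 2 and 5 were the lowest and the highest of all. Its log2 fold change was -0.19 (SE 0.19, edgeR adjusted p = 0.526), and its 95% interval of -0.61 to 0.24 was the widest of the set. Its paralogs Sall2 and Sall3 had -0.26 (adjusted p = 0.161) and -0.40 (adjusted p = 0.143), and Sall4 was at 8 to 16 counts in each library.

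Of the 10 other transcription factors of microglia listed, 2 fell and 0 rose at 10% FDR, with a list median of -0.04, and Smad3 alone passed with the likelihood ratio test and with DESeq2. Those 2 were Smad3, which carries TGF-beta signals (-0.35, SE 0.09, edgeR adjusted p = 0.0570), and Mef2c (-0.28, SE 0.09, adjusted p = 0.0728), and both are also expressed by cortical neurons. Under library totals Smad3 and Mef2c had -0.16 and -0.09. Spi1, which encodes PU.1, had 0.22 (adjusted p = 0.322) and Irf8 0.24 (adjusted p = 0.283). Tgfb1, which keeps microglia in the homeostatic state, had 0.50 (adjusted p = 0.355), from 28, 50 and 91 counts to 95, 82 and 67, and its receptors Tgfbr1 and Tgfbr2 had -0.11 (adjusted p = 0.719) and 0.10 (adjusted p = 0.669).

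Olfml3 was measured at 7.08, 7.29 and 7.35 TPM at 6 months and at 7.28, 8.27 and 7.42 TPM at 24 months. The ages overlapped, with a log2 fold change of -0.03 (SE 0.12, edgeR adjusted p = 0.869; 95% interval -0.29 to 0.22). Of the related olfactomedin-like genes, Olfml1 had 0.21 (adjusted p = 0.422), Olfml2a -0.14 (adjusted p = 0.760) and Olfml2b -0.56 (adjusted p = 0.190). Over all 23 paralogs listed for the set, 1 rose and 1 fell at 10% FDR, with a median of -0.07. Of the 16 ligands and signalling partners, 2 rose and 2 fell (Il34 and Cx3cl1), with a median of 0.04, and of the 10 host and neighbouring genes, 1 fell, with a median of -0.06.

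**Figure D2:**
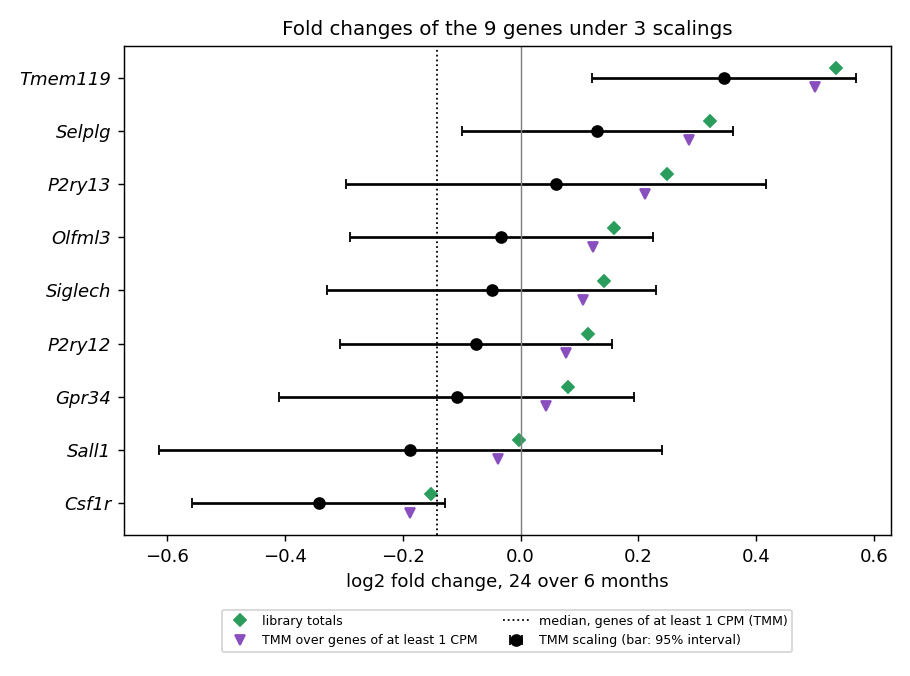
Log2 fold change of each gene (24 over 6 months, horizontal axis) with TMM scaling and its 95% interval in black, with library totals as green diamonds and with TMM over genes of at least 1 CPM as purple triangles. Tmem119 lies right of 0 under the 3 scalings and Csf1r left of 0, while Olfml3, Siglech, P2ry12 and Gpr34 change sign between TMM and the other scalings; the dotted line is the TMM median of genes of at least 1 CPM (-0.14).

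By level per exonic length the order of the set over the 6 mice was P2ry12, Tmem119, Gpr34, Csf1r, Selplg, P2ry13, Siglech, Olfml3 and Sall1, with mean TPM from 121.5 down to 5.26. The ranges of Gpr34 and Csf1r overlapped, as did those of Selplg and P2ry13. Every other gene in the order was above the next in all 6 mice.

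Ratios between genes of 1 library do not depend on how libraries are scaled. They were chosen after the values were seen and are given without a test. The TPM ratio of Tmem119 to Csf1r was 1.15, 1.24 and 1.19 for the younger mice and 1.87, 2.10 and 1.80 for the older mice, so the ratio of the means was 1.62 and all 24-month mice lay above all 6-month mice. Against Cx3cr1, the microglial fractalkine receptor, whose log2 fold change was -0.07 (edgeR adjusted p = 0.675), Tmem119 was at 0.829, 0.907 and 0.755 and then at 1.14, 1.18 and 1.01. Csf1r was at 0.723, 0.734 and 0.636 of Cx3cr1 and then at 0.610, 0.559 and 0.564. The 3 ratios thus kept the ages apart, in opposite directions for Tmem119 and Csf1r.

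**Figure D3:**
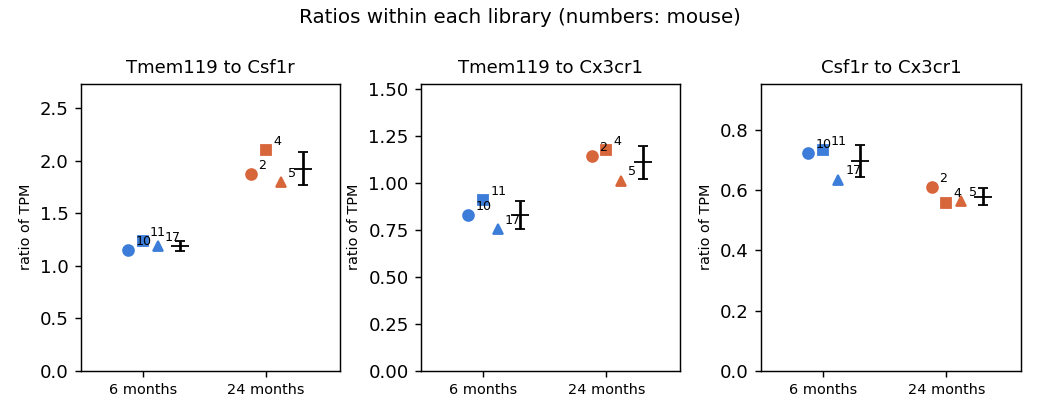
TPM ratios within each library (vertical axes, from 0) of Tmem119 to Csf1r, Tmem119 to Cx3cr1 and Csf1r to Cx3cr1, 6 months in blue and 24 months in orange, with mouse numbers and the mean ± SD (n = 3) in black. The ages do not overlap in any of the 3 panels, and the ratio of Tmem119 to Csf1r moves from at most 1.24 to at least 1.80.

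Of the 36 pairs of genes in the set, 14 had count ratios that kept the ages apart, beside 23.9% of all pairs of genes of at least 1 CPM. Tmem119 took part in 7 such pairs of its 8 and was relatively higher in each, P2ry13 being the exception, and Csf1r took part in 5 of its 8 and was relatively lower in each. Selplg was in 4 such pairs of 8, Siglech in 3 and P2ry13 in 1, and P2ry12, Gpr34, Sall1 and Olfml3 were in 2 each. As a share of the summed TPM of the set, Tmem119 went from 14.5% to 16.9% at 6 months to 18.8% to 20.8% at 24 months, Csf1r from 12.6% to 13.7% to 9.57% to 11.1%, and P2ry12 stayed the largest share at 33.7% to 36.9%.

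The summed level of the 9 genes was 334.7, 329.9 and 336.3 TPM at 6 months and 320.3, 366.0 and 389.3 TPM at 24 months. In TMM-scaled CPM the sums were 301.4, 297.4 and 299.5, and then 261.7, 291.5 and 314.6. The 24-month mice lay on both sides of the 6-month mice on both scales, and the fold of the mean sums was 1.07 in TPM and 0.966 in CPM. The 6-month mice were close to each other and the 24-month mice were not, with SDs of 3.33 and 35.1 TPM.

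For 8 of the 9 genes, Tmem119 being the exception, the ratio of the highest to the lowest CPM within an age was wider at 24 months, and this held for 58.0% of all genes of at least 1 CPM. It was 1.24 and 1.67 for Sall1, 1.25 and 1.48 for P2ry13 and 1.11 and 1.37 for Gpr34 at 6 and 24 months. Mouse 2 was the lowest 24-month mouse for 6 of the 9 genes, as for 48.2% of genes of at least 1 CPM, and mouse 5 was the highest for 7. The mean centred log2 CPM of the set was -0.18, -0.00 and 0.13 in mice 2, 4 and 5, and 0.02 in each 6-month mouse. Mouse 2 also had the highest receptor gene background and the lowest summed TPM of the endothelial list (253.7 against 351.5 to 437.2 in the others), of the fibroblast and mural list (168.2 against 211.5 to 339.7) and of the oligodendrocyte list (926.0 against 1557 to 2802). Its sum was the highest of all mice for the complement C1q and lysosomal microglia list (1164 against 797.6 to 909.9 TPM). That held also for the stress and activity list (4084 against 778.9 to 3699 TPM). For the other microglial identity genes its sum of 607.3 TPM lay within the range of the others (569.3 to 643.3). The part of these lists and of the background in the low values of mouse 2 was not tested. Without mouse 2 the log2 fold changes of Tmem119 and Csf1r were 0.40 and -0.30.

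**Figure D4:**
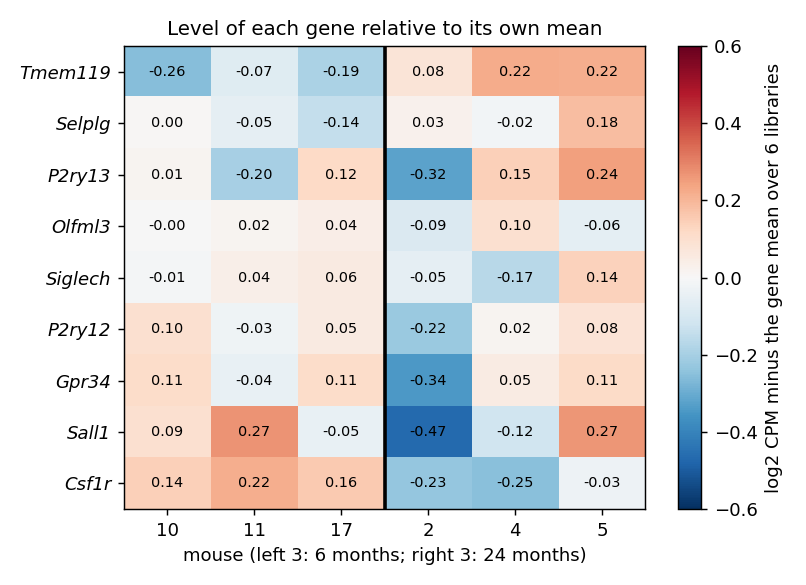
Log2 CPM of each gene minus its mean over the 6 libraries (colour and printed value), by gene (rows) and mouse (columns, 6 months left and 24 months right of the line). Tmem119 is below its mean in the 6-month mice and above it in the 24-month mice, Csf1r the reverse, and P2ry13, Gpr34, P2ry12, Sall1 and Olfml3 are lowest in mouse 2.

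Among 18610 genes of at least 1 TPM outside the set, those whose centred log2 CPM over the 6 mice lay nearest to the mean of the set were Sod3, Dennd5a, Zfp688, Cntrl and Josd2, with root mean square differences of 0.011 to 0.026. P2ry12 itself was at 0.046 from that mean, and Tmem119, at 0.205, was the farthest gene of the set. Of the other listed microglial genes, Cx3cr1 was at 0.069.

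The 20 other microglial identity genes had 0 calls in either direction at 10% FDR with edgeR's quasi-likelihood test, its likelihood ratio test and DESeq2, and 2 had an unadjusted p under 0.05. Of these genes 9 were fitted higher and 11 lower, and the median log2 fold change was -0.01, beside -0.14 for genes of at least 1 CPM. Cx3cr1 was at 62.6 ± 4.81 and 64.4 ± 7.29 TPM (SD, n = 3). Its neuronal ligand Cx3cl1 fell from 922.9 ± 25.7 to 645.8 ± 29.1 TPM (SD, n = 3; log2 fold change -0.63, SE 0.08, adjusted p = 0.0313). The ends of the list were Gpr165 (-0.60, adjusted p = 0.126) and Bin2 (0.39, adjusted p = 0.112). The summed TPM of these genes was 1.70 to 1.73 times that of the 9 genes at 6 months and 1.63 to 1.90 times at 24 months.

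The genes of disease-associated microglia crossed the set as follows. Of 17 listed, 2 rose and 0 fell at 10% FDR, with a median of 0.10. Those were Cd68, a lysosomal protein of macrophages (0.35, SE 0.12, edgeR adjusted p = 0.0929), and Itgax, which went from 4, 5 and 5 counts to 15, 18 and 15 (adjusted p = 0.0518), beside a receptor gene background of 13.1, 11.7 and 8.54 counts at 24 months. The summed TPM of the list over that of the 9 homeostatic genes was 10.6 to 11.9 at 6 months and 10.1 to 12.6 at 24 months. Apoe, Ctsb and Ctsd made up most of it, and without them the ratio was 0.825 to 0.981 and 0.915 to 1.00, so the ages still overlapped. Cd68 passed with neither the likelihood ratio test nor DESeq2, and Itgax with both. The 10 complement C1q and lysosomal microglia genes had 0 calls with these tools and 0 at an unadjusted p under 0.05, and a median of 0.17, with C1qc at 0.26 (adjusted p = 0.206). The median of these 10 was above that of the 9 genes under TMM and under library totals (0.36 against 0.14). The summed TPM of these 10 over that of the 9 genes was 2.39 to 2.58 at 6 months. At 24 months it was 3.63, 2.43 and 2.34 in mice 2, 4 and 5, so the ages overlapped.

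**Figure D5:**
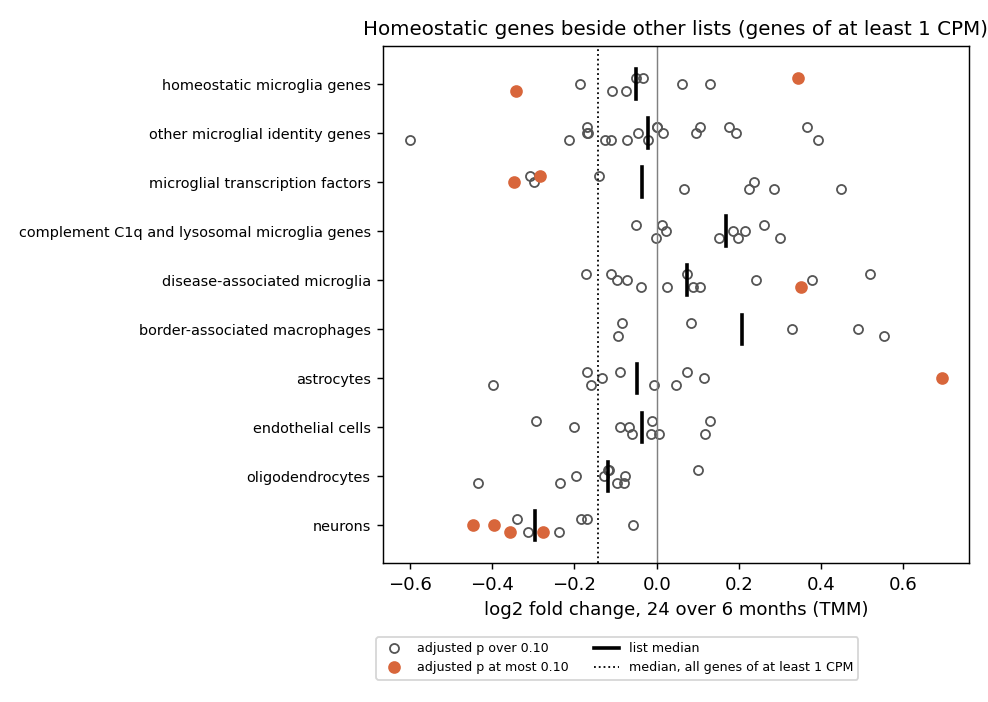
Log2 fold change (24 over 6 months, horizontal axis) of each gene of at least 1 CPM in the homeostatic set and in 9 other lists, filled where the adjusted p was at most 0.10, with the list medians as black bars and the median of all genes of at least 1 CPM (-0.14) as a dotted line. The 9 homeostatic genes span -0.34 to 0.34 around a median of -0.05, the other microglial identity genes hold no filled point, and the neuronal list lies wholly left of 0 under TMM.

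Other cells of the cortex and of its borders were read beside the set. Of the 10 border-associated macrophage genes, which share Csf1r with microglia, 1 rose (Folr2, at 0, 0 and 1 counts and then 5, 8 and 1, beside a receptor gene background of 4.22, 3.78 and 2.75 at 24 months, and not called with DESeq2), the list median was 0.20, and the summed level was 12.9 to 22.9 TPM at 6 months and 15.7 to 29.4 TPM at 24 months. Of 9 monocyte and neutrophil genes tested, 3 rose, Ccr2, Ly6c2 and Plac8, and the summed level of the list was 8.90 to 12.7 and 6.52 to 21.1 TPM. Of 10 T and B cell genes, 4 rose, Cd3g, Cd8a and Ms4a1 among them, with sums of 97.0 to 110.8 and 92.6 to 105.4 TPM. These 3 sums overlapped between the ages, as did the ratio of the border macrophage list to the homeostatic set (0.0387 to 0.0681 and 0.0452 to 0.0802), and 0 genes of these lists were at 0 in all libraries. Trbc2 made up most of the T and B cell sum, and the other 9 genes summed to 2.83 to 3.51 TPM at 6 months and to 5.82 to 7.71 TPM at 24 months, which did not overlap. Those 9 genes had 84 to 105 counts at 6 months, of which the receptor gene background would supply 19.2 to 23.4, and 149 to 213 at 24 months, of which it would supply 51.5 to 79.1. With DESeq2 1 of the 3 monocyte genes (Ccr2) and 3 of the 4 T and B cell genes passed.

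Of 10 neuronal genes, 4 fell (Syt1, Tubb3, Stmn2 and Camk2a, the last not with DESeq2 or the likelihood ratio test) and the list median was -0.30 under TMM and -0.11 under library totals. Of 10 astrocyte genes, 1 rose (Gfap, 0.69, edgeR adjusted p = 0.0738), with a median of -0.05. The oligodendrocyte, endothelial, and fibroblast and mural lists of 10 genes each had 0 calls with edgeR and DESeq2 and 0 genes at an unadjusted p under 0.05, with medians of -0.12, -0.04 and 0.09. Of 5 red blood cell genes, 1 fell (Hbb-bt), with a median of -0.36, and of 10 stress and activity genes, 1 fell (Jun), with a median of -0.70. The summed TPM of the stress and activity list was 1806 to 3699 at 6 months. At 24 months it was 4084, 988.2 and 778.9 in mice 2, 4 and 5, so the ages overlapped and mouse 2 was the highest of all. The part of these lists in the values of Tmem119 and Csf1r was not tested.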

How the data were processed

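RNA-seq was analysed for the cortex of 6 male mice, 3 per age. The authors trimmed single-end reads of 75 bases (Trim Galore 0.6.4), mapped them to GRCm38 with GENCODE vM23 (STAR 2.7.3a) and counted them on exons with featureCounts (Subread 2.0.0). Apart from named options, among them fractional counting of multi-mapped reads, featureCounts ran with defaults, which ignore strand. The deposited counts were whole in 100% of values, which fractional counting would not give, so they may come from another setting. They were used as they are, and the authors' deposited TPM, computed from counts and exonic length, served for levels. Counts of 29495379 to 36494240 per library limit the precision of genes with few counts.

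The 32905 genes whose counts summed to 10 or more entered the quasi-likelihood test of edgeR 4.0.16 (R 4.3.3), with TMM scaling and Benjamini-Hochberg adjustment over all of them. The study's 1% FDR and a wider 10% FDR were used, and adjusted p-values are edgeR's. Alternatives were other scalings, filters and tests (likelihood ratio, DESeq2 1.42.0), subtraction of the receptor gene background, and each mouse left out. CPM uses TMM-scaled totals, and centred log2 CPM a prior count of 2. The scripts were tested on simulated data. Positions are from GENCODE vM21, where 55240 of 55421 identifiers were found, and promoters from RefSeq. Named genes were all 9 members, ligands, partners, paralogs, hosts or neighbours of them, the 3 highest and 3 lowest of each list at 1 CPM or more, the 5 genes nearest in pattern and, added after their values were seen, Hmgxb3 and the called genes of the lists. The members, lists and the 10% threshold were chosen with earlier results of these data known. Some listed genes are not reported here by name. Figures were drawn with matplotlib 3.10.9.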

Additional observations from a re-analysis of the deposited data

How the results depend on the processing

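At 1% FDR 0 of the 9 genes passed under every one of the 14 alternatives, where over all genes the likelihood ratio test passed 1703, DESeq2 227, no filter 42, leaving out 1 mouse 0 to 13 and the others 0. At 10% FDR the count of 2 fell to 1 with TMM over genes of at least 1 CPM, with filterByExpr and with no filter (Tmem119 in each), and to 0 with the receptor background subtracted. With that subtraction 28 of all genes passed. Tmem119 then had a log2 fold change of 0.49 and Csf1r of -0.20 (edgeR quasi-likelihood unadjusted p = 0.000605 and 0.0457). The count among the 9 genes ranged from 0 to 2 when 1 mouse was left out, being 2 only without mouse 5. Over all genes the same threshold passed 6040 genes (3299 higher, 2741 lower), 7498 with the likelihood ratio test, 5530 with DESeq2 size factors, 4439 with library totals (4121 higher, 318 lower), 4076 with TMM over genes of at least 1 CPM, 4014 with no filter, 3048 with DESeq2, 1538 with filterByExpr, 28 with the background subtracted and 0 to 7998 with 1 mouse left out. The log2 fold change of Tmem119 was 0.30 to 0.54 and past 10% FDR in 8 of the 14 (adjusted p 0.0494 to 0.190). That of Csf1r was -0.41 to -0.15 and past it in 4 (adjusted p 0.0351 to 0.358). Selplg passed with library totals alone. The median of the 9 genes, -0.05, became 0.14 with library totals, 0.11 with TMM over genes of at least 1 CPM, 0.0636 with filterByExpr and 0.0773 with the background subtracted. The genes keeping the ages apart, 2, were 4 with library totals (35.7% of all genes), 4 with TMM over genes of at least 1 CPM (33.6%), 3 with the background subtracted (20.8%) and 2 to 4 with 1 mouse left out (42.2% to 53.1%). The fold of the summed level was 0.966 in CPM in place of 1.07 in TPM. P2ry12, Siglech and Gpr34 changed sign in 5 of the 14, Olfml3 in 7 and P2ry13 in 1, and none of these passed 10% FDR under any. No paired analysis was possible because the ages share no mouse number. For the other 7 genes, the data do not exclude changes within the intervals given.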
